A study of Homo sapiens with 47 samples.

Results

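The genes described here are 9 markers that set epithelial cells apart by how they adhere to each other and by how they splice RNA, namely EPCAM, CDH1, CLDN1, CLDN3, CLDN4, CLDN7, ESRP1, ESRP2 and CD24. They were chosen by name, as 9 of the 25739 genes in the table, and all 9 had a row in it. Their levels were followed over 37 single circulating tumor cells (CTC) of 5 mice and over 6 single cells from culture. All cells were MDA-MB-231-LM2 (LM2), an established human triple-negative breast cancer (TNBC) line with a mesenchymal-like, metastatic phenotype that was labeled with GFP. For the CTCs, LM2 cells had been placed in the mammary fat pad of NSG mice a few weeks old, which lack lymphocytes and natural killer cells but still make red cells, platelets and myeloid cells, and terminal blood was taken once the primary tumors were large. CTCs were enriched by size on a microfluidic device, stained live for CD45 and for nuclei, and picked one by one by their GFP signal. There were 2 CTCs from mouse 5541, 4 from 5542, 10 from 5545, 17 from 5546 and 4 from 5549. The library names of mouse 5546 carry a letter that the sources do not explain, c in 9 and s in 8 of them. The names of 2 cultured cells, LM-P3 and LM-P4, carry a P that is not explained either. The mouse is the replicate of the CTCs. The 6 cultured cells have no label that ties them to separate cultures and were taken as 1 culture with no replicate. No test of CTCs against culture is therefore the main result.

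Epithelial sheets are held together by adherens junctions, in which the cadherin CDH1 (E-cadherin) binds its like on the next cell and is tied to actin through catenins, and by tight junctions, whose strands are built of claudins. EPCAM is a surface adhesion protein of epithelia, widely used to capture CTCs, and it is known to bind CLDN7. ESRP1 and ESRP2 are RNA-binding proteins that set epithelial forms of transcripts such as CD44, ENAH and FGFR2, CD24 is a small glycosylated surface protein, and the repressors ZEB1, SNAI1 and SNAI2 silence many of these genes in mesenchymal cells by binding E-box motifs.

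Upstream sequences are shown for claudins because CLDN7 was the most often detected of the 9 genes and CLDN3 one of the least. RefSeq windows on GRCh38.p14 of 250 bases before a transcription start were found for 5 of the 9 genes, CLDN1, CLDN3, CLDN4, CLDN7 and CD24, and not for EPCAM, CDH1, ESRP1 and ESRP2. They were searched on both strands for the E-box CACCTG, which reads CAGGTG on the other strand, and 17.5% of all 35116 windows of that length held it. The windows of CLDN7 before its first start (chr17:7263214-7263463, minus strand) and of CLDN3 (chr7:73770271-73770520, minus strand) held none. They contained 9 and 19 CpG, and they are given here 5′ to 3′ with no letter in capitals.
CLDN7 first start: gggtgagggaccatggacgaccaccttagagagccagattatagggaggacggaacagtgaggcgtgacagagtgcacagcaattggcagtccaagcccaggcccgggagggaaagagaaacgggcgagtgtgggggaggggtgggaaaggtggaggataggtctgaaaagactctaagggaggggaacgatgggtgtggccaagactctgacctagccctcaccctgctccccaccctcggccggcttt
CLDN3: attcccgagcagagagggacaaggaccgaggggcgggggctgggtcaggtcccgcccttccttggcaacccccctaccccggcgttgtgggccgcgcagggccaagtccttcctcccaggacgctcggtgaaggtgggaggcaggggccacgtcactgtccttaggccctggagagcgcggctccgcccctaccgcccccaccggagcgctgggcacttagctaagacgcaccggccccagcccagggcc

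The window before the second start of CLDN7 held the E-box 4 times, beginning at bases -174, -135, -20 and -9 from that start, and part of it is annotated as 5′ untranslated exon of another CLDN7 transcript. Of the 8 windows of the 5 genes, the only other match was 1 before the third start of CD24, at base -249. Stretches of 30 bases around these matches are given 5′ to 3′ on the minus strand, with the E-box in capitals.
CLDN7 chr17:7262635-7262664: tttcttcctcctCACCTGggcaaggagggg
CLDN7 chr17:7262596-7262625: cgacttccggttCAGGTGagtgtcccttcg
CLDN7 chr17:7262479-7262508: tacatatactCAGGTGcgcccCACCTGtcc
CD24 chr6:106974260-106974289: cCAGGTGactacttcccactttcacccaga
A match only says that these letters stand there.

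The CTC libraries held 469614 to 2041333 reads on genes and 2227 to 11010 genes, counted among the 14594 genes seen in at least 5 of the 43 cells, and the cultured libraries held 776949 to 1186197 reads and 7226 to 12271 genes. Values are normalized counts, that is reads divided by a size factor of the cell, and a gene counts as detected where a cell has 1 or more reads of it. Reads carry no molecular identifiers and CTCs of 1 mouse share their source, so the exact 95% binomial intervals given for shares of cells cover counting error only. Of the 9 listed LM2 tumor cell and mesenchymal genes, VIM, CD44, AXL, KRT8 and KRT18 were detected in 37 of 37 CTCs, CAVIN1 in 36, SPARC in 35, EGFR in 33 and FN1 in 32. The table holds 1 row per gene, so protein and splice forms were not analysed here.

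CLDN7 was detected in 25 of 37 CTCs and each of the other 8 genes in 9 or fewer. The share was 67.6% for CLDN7 (interval 50.2 to 82.0%), 24.3% for CD24 (11.8 to 41.2%), 21.6% for both EPCAM and CLDN4 (9.83 to 38.2%) and 10.8% for CLDN1 (3.03 to 25.4%). It was 8.11% for CLDN3 (1.70 to 21.9%) and 5.41% for ESRP1 (0.661 to 18.2%), and CDH1 was found in 1 CTC (0.0684 to 14.2%). ESRP2 was found in 0 of 37 CTCs, which allows a share of CTCs with a read of up to 8.11% by the limit of 3 counts and of up to 9.49% by the exact interval. In culture, EPCAM was found in 5 of 6 cells, CLDN7 in 4, ESRP2 in 3, CLDN4 and CD24 in 2 each, CLDN1 and CLDN3 in 1 each, and CDH1 and ESRP1 in 0, which at this number of cells leaves wide intervals (35.9 to 99.6% for EPCAM and 11.8 to 88.2% for ESRP2).

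**Figure D1:**
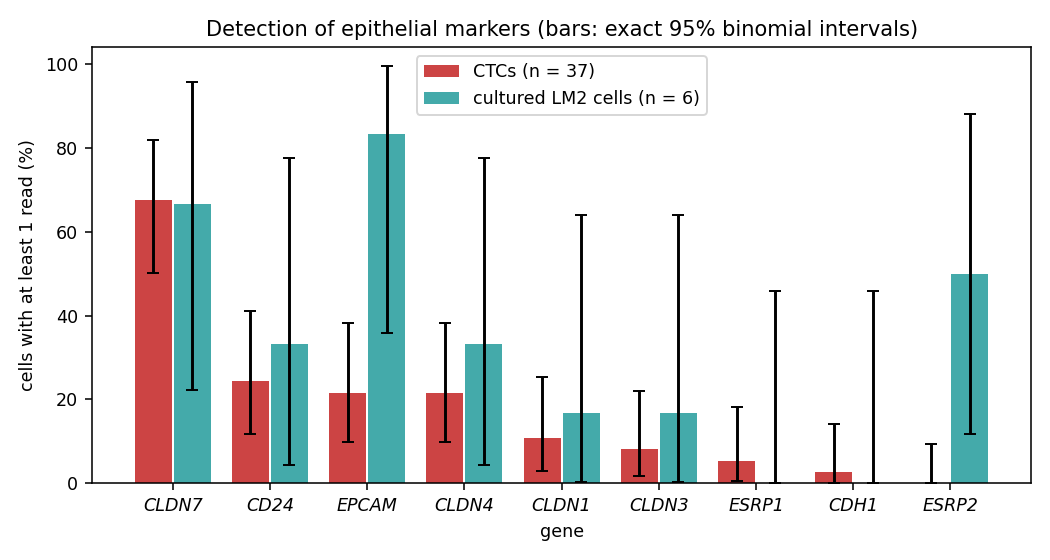
Share of cells, in percent, with at least 1 read of each of the 9 genes in the 37 CTCs (red) and the 6 cultured LM2 cells (teal), with exact 95% binomial intervals as bars. CLDN7 stands at 67.6% of CTCs and at 66.7% of cultured cells, and EPCAM at 21.6% of CTCs and 83.3% of cultured cells.

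Detection rested on few reads for some genes. A single read was the whole signal in 3 of the 4 CTCs with CLDN1, in 2 of 8 with CLDN4, in 2 of 9 with CD24, in 1 of 2 with ESRP1 and in 1 of 8 with EPCAM. CLDN7 had at least 5 reads wherever it was detected, with a median of 59 reads and a highest count of 396. With each library thinned to the 469614 reads of the shallowest one, CLDN7 was still found in 25 CTCs, EPCAM and CLDN4 in 7 each and CD24 in 7.

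**Figure D2:**
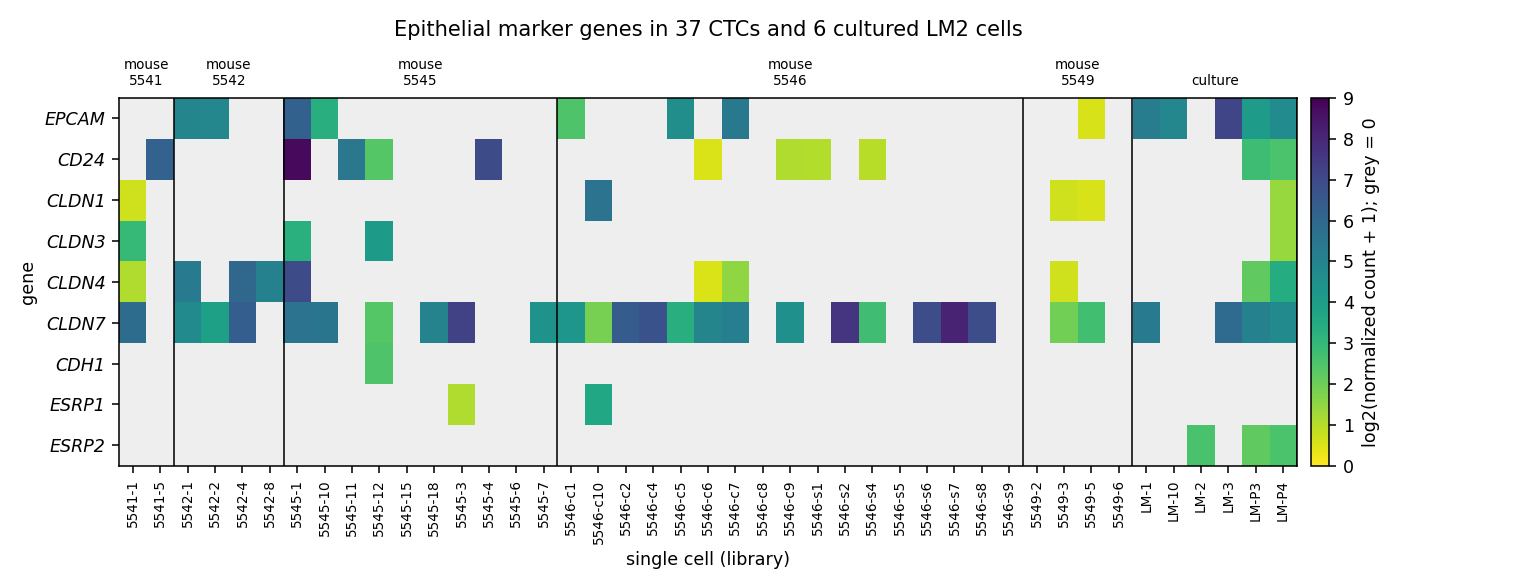
Level of the 9 genes, as log2 of the normalized count plus 1, in each of the 37 CTCs by mouse and in the 6 cultured LM2 cells. Grey marks a value of 0. The row of CLDN7 is filled in 25 CTCs, the row of ESRP2 in none of them, and CTC 5545-1 carries 5 of the 9 genes.

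EPCAM (ENSG00000119888, chromosome 2, 47345158 to 47387601, plus strand of GRCh38) was lower in the CTCs of each mouse than in culture, in a design with no replicate of the culture. Its normalized count was 72.1 in CTC 5545-1, 40.2 in 5546-c7, 28.7 in 5542-1, 27.7 in 5542-2, 22.4 in 5546-c5, 8.95 in 5545-10, 4.54 in 5546-c1 and 0.464 in 5549-5, and it was 0 in the other 29 CTCs. In cultured cells it was 139 in LM-3, 35.8 in LM-1, 27.6 in LM-10, 24.2 in LM-P4, 15.4 in LM-P3 and 0 in LM-2. No CTC lay above LM-3, and CTCs 5545-10, 5546-c1 and 5549-5 lay below every cultured cell that held EPCAM. The low end of the normalized counts and the share of cells without a read thus both differed from culture. Normalized counts depend on the scaling of each cell. In reads, 5545-10 held 19, 5546-c1 held 14 and 5549-5 held 1, beside 18 in LM-1, 16 in LM-10, 15 in LM-P4 and 13 in LM-P3. Averaged by mouse, EPCAM was 0 in mouse 5541, 14.1 in 5542, 8.10 in 5545, 3.95 in 5546 and 0.116 in 5549, a mean of 5.25 ± 5.95 (SD, n = 5 mice) against 40.4 ± 50.04 in culture (SD over 6 cells).

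The mean log2 ratio of the 5 mouse means to the culture mean, after 1 was added to each, was -3.46 for EPCAM, and 0 of 5 mice lay above the culture. Cultured cell LM-3 carried much of the culture mean, which was 20.6 ± 13.6 (SD over 5 cells) without it, and the ratio was then -2.52. The same ratio had a median of -1.56 over the 9164 genes with a mean of at least 8 in either group (-0.81 with scaling by total reads in place of the authors' size factors), and 60.3% of those genes were below culture in all 5 mice and 1.04% above it, so that EPCAM shares its place below culture in every mouse with most of these genes. The direction of the median gene depended on the measure, since it was -0.24 with no minimum mean and 0.31 in the edgeR fit given below, which works on summed reads. Among the 2471 genes found in exactly 5 of 6 cultured cells, 6.88% were found in at most 8 CTCs, as EPCAM was, and the median gene of that kind was found in 20 CTCs. These detection patterns were chosen for comparison after the values had been seen. CTCs with EPCAM had a median of 8367.5 genes detected and those without it 6880, and in mouse 5546 EPCAM was found in 3 of 9 libraries with c and 0 of 8 with s. The part of library complexity in EPCAM detection was not tested.

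CDH1 (ENSG00000039068, chromosome 16, 68737292 to 68835537, plus strand), the defining cadherin of epithelial adherens junctions, was found in 1 CTC alone, 5545-12, at a normalized count of 4.62 from 11 reads, and in no cultured cell. Reads on 5.71% of its exonic bases could also come from a long noncoding RNA on the opposite strand, since strand was not used in counting. Whether such reads were counted for CDH1 or dropped was not checked. Of the 19 genes with symbols starting with CDH, a set looked up after the values had been seen, CDH4 was detected most often, in 14 CTCs and 4 cultured cells, followed by CDH11 in 8 CTCs and 2 cultured cells. CDH3 (P-cadherin) was found in 3 CTCs and 1 cultured cell, and CDH2, the N-cadherin often used as a mesenchymal marker, in 1 CTC and 0 cultured cells.

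CLDN7 (ENSG00000181885, chromosome 17, 7259903 to 7263983, minus strand) covered a wide range among CTCs, and its average by mouse was near that of the culture. Over all 37 CTCs its normalized count ran from 0 through a median of 13.8 to 272, with the highest values in 5546-s7 (272), 5546-s2 (197), 5545-3 (153), 5546-s8 (117), 5546-s6 (117) and 5546-c4 (106). In cultured cells it was 57.4 in LM-3, 37.8 in LM-1, 32.1 in LM-P3, 25.8 in LM-P4 and 0 in LM-2 and LM-10. Thus 8 CTCs lay above every cultured cell, 12 CTCs were at 0, and the groups overlapped.

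The mouse means of CLDN7 were 27.8 in mouse 5541, 29.2 in 5542, 30.0 in 5545, 59.4 in 5546 and 2.09 in 5549, which gives 29.7 ± 20.3 (SD, n = 5 mice) beside 25.5 ± 22.4 in culture (SD over 6 cells). The mean log2 ratio to culture was -0.28 and turned to 0.47 with scaling by total reads, and it was 0.43 without mouse 5549 and 0.12 without cultured cell LM-3, so that its sign depended on the scaling and on single samples. Of the 5 mice, 4 lay above the culture mean and mouse 5549 lay below it. Within mouse 5546, CLDN7 was found in 8 of 9 libraries with c at a mean of 33.6 and in 5 of 8 with s at a mean of 88.6. Among the 2191 genes found in exactly 4 of 6 cultured cells, 12.3% were found in at least 25 CTCs, and the median such gene was found in 14.

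Reads on bases that CLDN7 shares with other genes cannot be assigned with certainty, and whether they were counted for CLDN7 or dropped was not checked. CLDN7 shares 12.3% of its exonic bases with other genes, of which 269 bases belong to a gene on the same strand (ENSG00000262302) and 38 to ELP5 on the opposite strand. ELP5, a subunit of the Elongator complex, was detected in 21 of the 25 CTCs with CLDN7 at a median normalized count of 23.5 over these CTCs, and in 6 of the 12 without CLDN7 at a median of 1.20. Spearman's rho between CLDN7 and ELP5 was 0.283 across 37 CTCs, 0.646 in mouse 5545 (10 CTCs) and 0.480 in mouse 5546 (17 CTCs), a description of points that share their mouse, library and depth. The part of shared bases in the CLDN7 values was not tested.

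Sums of blood genes had different medians in CTCs with and without CLDN7, not all in the same direction, and their ranges overlapped. The 4 erythroid genes in the table of 6 listed summed to a median normalized count of 813 (range 0 to 4749) in CTCs with CLDN7 and of 2256 (range 0.587 to 15558) in those without it. Medians of the 6 leukocyte genes were 112 (range 0 to 1322) with CLDN7 and 205 (range 0 to 2204) without it, and those of the 4 neutrophil genes were 42.0 (range 0 to 352) and 10.7 (range 0 to 571). The erythroid sum also had a lower median in CTCs with EPCAM, 806 (range 3.17 to 3927), than in those without it, 1479 (range 0 to 15558). All 6 cultured cells were at 0 for the erythroid and neutrophil genes, but their leukocyte sum had a median of 175 (range 0 to 700). CD74 had a mean of 242 in culture, so that sum is not a measure of blood cells alone. The blood was that of mice and reads were aligned to the human genome, so reads counted for blood genes could be mouse reads. The species of these reads and the part of blood RNA in CLDN7 and EPCAM detection were not tested.

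Genes whose level followed CLDN7 most closely across the 37 CTCs were NIPAL3, with Spearman's rho of 0.761, DCUN1D1 with 0.685 and RC3H2 with 0.641, out of 6935 genes compared. CLDN7 was the only one of the 9 genes detected in enough CTCs, at least 10, for such a ranking. NIPAL3 and RC3H2 were each detected in 31 CTCs and DCUN1D1 in 27.

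The other 3 claudins were rare and uneven between mice. CLDN4 (ENSG00000189143, chromosome 7, 73799542 to 73832690, plus strand) had a normalized count of 119 in 5545-1, 61.5 in 5542-4, 37.2 in 5542-1 and 31.9 in 5542-8, and of 1.83 or less in the 4 further CTCs that held it. High levels thus came from 3 of the 4 CTCs of mouse 5542 and from 1 CTC of mouse 5545. The mouse means were 0.563 in 5541, 32.6 in 5542, 11.9 in 5545, 0.132 in 5546 and 0.140 in 5549, giving 9.07 ± 14.1 (SD, n = 5 mice) beside 2.21 ± 3.93 in culture, where LM-P4 had 9.68 and LM-P3 had 3.56. The mean log2 ratio was 0.27, with 2 of 5 mice above the culture, and its sign was not stable, at -0.46 without CTC 5545-1, -0.51 without mouse 5542, -0.16 without mouse 5545, -0.44 with 0.1 added in place of 1 and 1.18 without cultured cell LM-P4.

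CLDN3 (ENSG00000165215, chromosome 7, 73768997 to 73770270, minus strand), which lies close to CLDN4, was found at 15.96 in 5545-12, 8.71 in 5545-1 and 6.75 in 5541-1, and at 1.61 in the cultured cell LM-P4. CLDN1 (ENSG00000163347, chromosome 3, 190305707 to 190322446, minus strand) reached 46.6 in 5546-c10, from 89 reads, and was a single read in 5541-1, 5549-3 and 5549-5. Without 5546-c10 its mean over CTCs dropped from 1.30 to 0.0441. So 1 cell carried nearly all reads of CLDN1, and its mean over mice, 0.655 ± 1.17 (SD, n = 5), says little about the other CTCs.

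The splicing regulators were close to the limit of detection. ESRP1 (ENSG00000104413, chromosome 8, 94641074 to 94707466, plus strand) had a normalized count of 11.5 in 5546-c10, from 22 reads, and of 1.10 in 5545-3, from 1 read, and was 0 in every cultured cell. The same CTC, 5546-c10, held the high level of CLDN1. ESRP2 (ENSG00000103067, chromosome 16, 68229033 to 68238102, minus strand) was 5.02 in LM-2, 4.84 in LM-P4 and 3.56 in LM-P3, a culture mean of 2.24 ± 2.50 (SD over 6 cells), and 0 in all 37 CTCs.

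A ratio to culture is not given for ESRP2, since with 0 in every CTC it is set by the number added to both means. Of the 1935 genes found in exactly 3 of 6 cultured cells, 1.96% were found in 0 of 37 CTCs, as ESRP2 was, and the median such gene was found in 9 CTCs. Its exons overlap other genes over 5.80% of their bases, of which 227 bases belong to NFATC3 on the opposite strand. Of the cultured cells with ESRP2, LM-2 had 8267 genes detected, fewer than the richest CTC, but LM-P4 and LM-P3 with 11814 and 12271 genes had more than any CTC, and the part of library complexity was not tested.

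CD24 (ENSG00000272398, chromosome 6, 106969831 to 106975627, minus strand) had the highest single value of the 9 genes. Its normalized count was 436 in 5545-1, from 551 reads, 119 in 5545-4, 71.9 in 5541-5, 41.7 in 5545-11 and 4.201 in 5545-12, and between 0.416 and 1.12 in 4 CTCs of mouse 5546. In culture it was 5.94 in LM-P3 and 4.84 in LM-P4. The 4 highest CTCs lay above every cultured cell, while 28 CTCs were at 0. The mean over mice was 19.2 ± 27.6 (SD, n = 5) beside 1.80 ± 2.80 in culture (SD over 6 cells), with a mean log2 ratio of 0.80 and 2 of 5 mice above culture. That ratio was -0.11 without mouse 5545, 0.07 without mouse 5541 and -0.37 with 0.1 added in place of 1, so its direction was not stable. Without 5545-1 the mean of CD24 over CTCs changed from 18.3 to 6.67.

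Since CD24 is also made by blood cells and has near-identical pseudogene copies, both were looked at. CTCs with and without CD24 had like levels of the neutrophil genes, with a median summed normalized count over 4 genes of 31.2 (range 0 to 352) and 32.7 (range 0 to 571), and of the erythroid genes, with medians of 1289 (range 1.81 to 4749) and 1216 (range 0 to 15558) over 4 genes. The summed leukocyte genes, 6 in the table, had a median of 203 (range 27.8 to 1322) with CD24 and 112 (range 0 to 2204) without it. Of the leukocyte genes, CD74 was detected in 30 CTCs and also in 4 cultured cells, and LYZ in 12 CTCs. PTPRC, which encodes CD45, and CD14 were detected in 11 CTCs each, and CD79A and MS4A1 of B cells in 1 CTC each. Of the neutrophil genes, S100A9 was detected in 30 CTCs, CSF3R in 10, and FCGR3B and MPO in 2 each. In 5545-1, CD74 was at 805 and the other genes of both lists were at 0. The pseudogene CD24P2 was found in 5 CTCs at no more than 4.78. The part of blood RNA, of mouse reads aligned to human genes and of copies in the CD24 values was not tested.

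Divided by exonic length, which allows genes to be compared, CLDN7 was the highest of the 9 in CTCs at 11.9 ± 8.15 normalized counts per kb (SD, n = 5 mice). CD24 followed at 6.22 ± 8.92, EPCAM at 2.16 ± 2.45, CLDN4 at 1.93 ± 3.00 and CLDN3 at 0.917 ± 1.28 per kb, and these neighbors did not differ beyond their spread over mice. CLDN1 stood at 0.181, ESRP1 at 0.0323 and CDH1 at 0.0152 per kb. In culture the order was led by EPCAM at 16.6 ± 20.6 per kb (SD over 6 cells) and CLDN7 at 10.2 ± 8.999, followed by CD24 at 0.580, CLDN4 at 0.470 and ESRP2 at 0.431.

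No gene of the 9 met the rule of size used for CTCs against culture, by which the mean of each of the 5 mice must differ at least 4-fold in the same direction from the culture mean after 1 is added to both. The rule took 5.38% of the 9164 genes with a mean of at least 8, namely 6 genes that were higher in CTCs (0.0655%) and 487 that were lower (5.31%). For most of the 9 this outcome was fixed by low levels, since 4 of them (EPCAM, CLDN4, CLDN7 and CD24) reached the minimum mean and 2 of them (EPCAM and CLDN7) were high enough in culture to be 4-fold lower. EPCAM missed the rule through mouse 5542. Without that mouse it met the rule, as 1 of 626 genes that were then lower, against 487 with all mice. The quasi-likelihood test of edgeR, run on 5 mouse sums of reads and 1 culture sum with the spread between mice taken for the culture too, called 0 of 13813 genes at an adjusted p under 0.05 (0.0%), and 1.74% had an unadjusted p under 0.05. It tested 6 of the 9 genes, of which 0 passed either threshold. The fitted log2 change was -1.65 ± 2.02 (SE) for EPCAM, 1.43 ± 1.46 for CLDN7, 3.14 ± 3.18 for CLDN4 and 4.33 ± 3.77 for CD24, on a scale where the median gene stood at 0.31. DESeq2 on the same sums called 15 genes and none of the 9, of which CDH1, CLDN1, CLDN3, ESRP1 and ESRP2 had no adjusted p and could not be called. Without a filter on low counts, edgeR called 27 genes and again none of the 9. In that fit 841 of 25739 genes had an unadjusted p under 0.05. ESRP2 (edgeR unadjusted p = 0.00673, adjusted p = 0.576) and CD24 (edgeR unadjusted p = 0.0487, adjusted p = 0.882) were among them.

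Most CTCs held few of these genes at a time. None of the 9 was detected in 7 CTCs, 1 gene in 13, 2 genes in 8, 3 genes in 6, 4 genes in 2 and 5 genes in 1 CTC, which averages 1.62 per CTC (median 1). The 6 cultured cells held 1 to 7 of the genes, on average 3 with a median of 2, and LM-P4 with 7 and LM-P3 with 5 had the most. After thinning to equal depth the means were 1.43 in CTCs and 2.5 in cultured cells. CTCs with more genes detected in all held more of the 9, with Spearman's rho of 0.671 (37 CTCs), 0.566 within mouse 5545 and 0.716 within mouse 5546, and of 0.598 and 0.687 among its libraries with c and s. After thinning, rho was 0.522 over the 37 CTCs, 0.305 within mouse 5545 and 0.561 within mouse 5546, and 0.325 and 0.866 among its libraries with c and s. Libraries with c held 1.89 and those with s 0.875 of the 9 genes on average. The part of library complexity in these counts was not tested, and values within the other 3 mice rest on too few CTCs to be given.

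**Figure D3:**
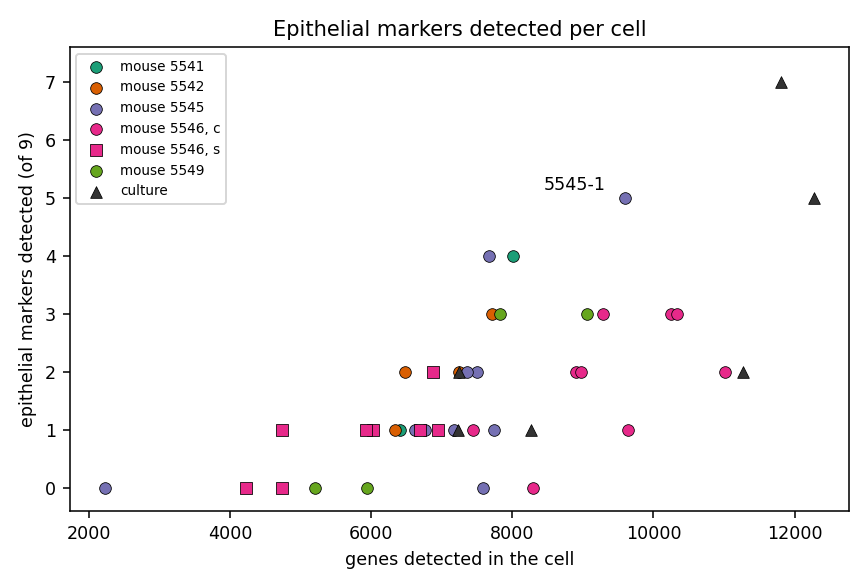
Number of the 9 epithelial markers detected in a cell (vertical axis) against the number of genes detected in it (horizontal axis), with CTCs colored by mouse, squares for libraries of mouse 5546 with the letter s, and triangles for cultured LM2 cells. CTC 5545-1 holds 5 markers, and cells with fewer genes detected tend to hold fewer markers, with Spearman's rho of 0.671 over 37 CTCs.

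Among CTCs, EPCAM was not seen without CLDN7, whereas the cultured cell LM-10 held EPCAM and no read of CLDN7. All 8 CTCs with EPCAM also held CLDN7, which was found in 17 of the 29 CTCs without EPCAM, and the 8 came from 4 mice. This held in 7 of 7 CTCs after thinning and in 7 of 7 with at least 2 reads required. CLDN1 (4 of 4 CTCs), CLDN3 (3 of 3), ESRP1 (2 of 2) and CDH1 (1 of 1) were likewise seen together with CLDN7, and CLDN4 was so in 7 of 8. CLDN7 was the most frequent gene, and the CTCs that held it had a median of 7705 genes detected against 6178 in those without it.

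CD24 was seen with CLDN7 in a smaller share of its CTCs than these genes were, a difference that rests on 9 CTCs and was not tested. It was found with CLDN7 in 5 of its 9 CTCs, while CLDN7 was present in 20 of the 28 CTCs without CD24, and 4 CTCs held CD24 as the only one of the 9 genes. It met EPCAM in 1 CTC, 5545-1, and CLDN4 in 2. CTCs with CD24 had a median of 6880 genes detected and those without it 7395.5. CLDN7 alone was the most frequent pattern, in 8 CTCs. EPCAM and CLDN7 with no other of the 9 were seen in 4 CTCs, and EPCAM, CLDN4 and CLDN7 in 2.

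**Figure D4:**
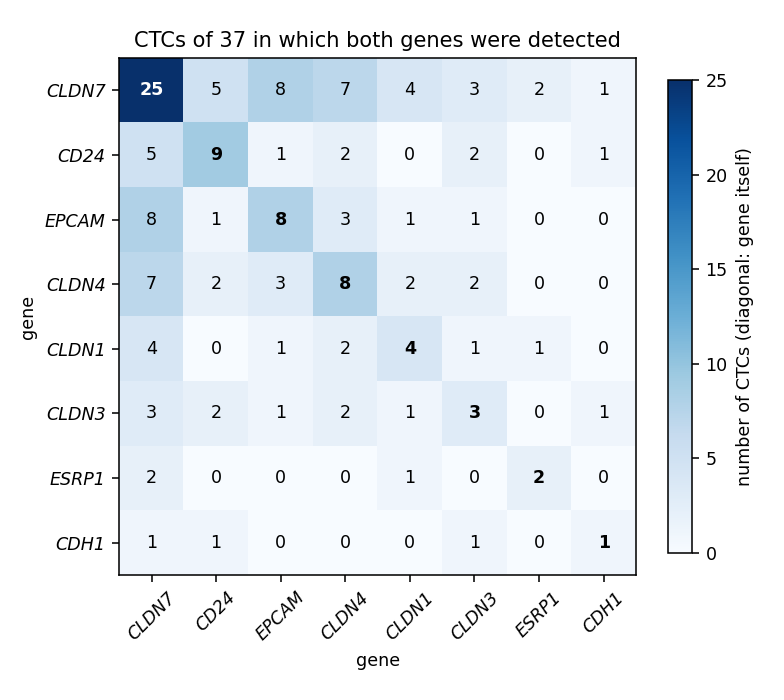
Number of CTCs, of 37, in which each pair of genes was detected together, with the count for each gene by itself on the diagonal. ESRP2, found in none, is left out. The EPCAM and CLDN7 cell reads 8, equal to the EPCAM diagonal, and CD24 shares 5 of its 9 CTCs with CLDN7.

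CTC 5545-1 held more of the 9 genes than any other CTC and was singled out after its values had been seen. It had the highest level of EPCAM (72.1), CLDN4 (119) and CD24 (436) among the 37 CTCs and the second highest of CLDN3 (8.71), and CLDN7 was at 46.7. Reads on the 9 genes were 0.0630% of its 1368881 reads, against a median of 0.00453% over all CTCs, a contrast that follows from how the cell was chosen. CTC 5546-s7 had nearly the same share, 0.0614%, with CLDN7 as the only one of the 9 genes. Other epithelial genes in it were SPINT2 and SPINT1, inhibitors of the surface protease matriptase, at 777 and 67.3, and the vesicle protein MAL2 at 53.9, which was 0 in each of the other 36 CTCs. These are 3 of 7 genes detected in it among 15 listed epithelial regulator and differentiation genes, while AP1M2, EHF, ELF3, ST14, MUC1 and CDS1 were at 0 and KLF4 at 0.792. Its ENAH level of 221 and SNAI1 level of 39.6 were also the highest of all CTCs, SNAI2 was at 87.9, ZEB1 at 15.0 and ZEB2 at 0, and ESRP1, ESRP2 and CDH1 were at 0. EPCAM, CLDN4 and CD24 were thus highest in a cell that also held transcripts of SNAI1, SNAI2 and ZEB1. Holding ZEB1 was common, as it was detected in 33 of the 37 CTCs. Its level in 5545-1 ranked 23 among the 37 and was below the median of 31.9 in the others.

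Related genes from fixed lists were read beside the 9. Their median log2 ratios cover every listed gene in the table with no minimum mean, and the median over all genes on that footing was -0.24. The median of -1.56 is for the 9164 genes with a mean of at least 8 and is not a like comparison. List medians in the edgeR fit (median gene 0.31) are given after them. Of 12 further adherens junction and cadherin genes in the table, 0 met the rule of size, with a median log2 ratio to culture of -0.34 (edgeR 0.85), and 9 were detected in at least 50% of CTCs. CTNNA1 (alpha-catenin) was detected in 37 CTCs at 129 ± 41.4 (SD, n = 5 mice) beside 336 in culture, and VCL (vinculin), which tethers junctions to actin, in 35 at 84.5 ± 40.7 beside 122. JUP (plakoglobin) had the largest ratio of this list, with 52.8 ± 80.2 beside 11.0 and a mean log2 ratio of 1.13, and 3 of 5 mice above culture, but without CTC 5541-5, which held 383, its mean was 15.3 ± 10.3 and the ratio 0.24, and AFDN (afadin) stood at 16.4 ± 3.52 beside 10.8. The partners of CDH1 inside the cell were therefore present in most CTCs in which CDH1 itself was not detected.

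Of 21 further tight junction genes, 3 were detected in at least 50% of CTCs, and 1, CLDN11, was lower by the rule, found in 3 CTCs and in 5 of 6 cultured cells at a culture mean of 10.6. Of the 9164 genes with a mean of at least 8, 5.31% were lower by the rule. Not all genes of this list reached that mean, so the shares are not on the same footing. The median log2 ratio of the list was -0.42 (edgeR 0.24). The cytoplasmic scaffold genes PARD3 and TJP1 (ZO-1) had the highest levels, 34.2 ± 19.9 (SD, n = 5 mice) beside 36.5 in culture and 19.7 ± 8.33 with 1 of 5 mice above culture, while F11R, a junctional adhesion molecule, stood at 6.65 ± 7.38 beside 3.12, with a mean log2 ratio of 0.30 that was -0.10 without CTC 5546-s8, and CLDN24 was found in 1 CTC. Besides the 4 claudins described above, the table held 8 claudins, of which CLDN12 was detected in 16 CTCs and each of the others in 4 or fewer.

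Of the epithelial regulator and differentiation genes, 15 of 20 were in the table and 0 met the rule, with a median log2 ratio of -0.65 (edgeR -0.28). SPINT2 was detected in 35 CTCs at 142 ± 101 (SD, n = 5 mice) beside 416 in culture, and the transcription factor KLF5 in 25 CTCs at 91.9 ± 90.8 beside 72.3, which was 42.9 ± 33.4 and thus below culture without CTC 5549-6, where it stood at 982. CDS1, a lipid enzyme gene, had the largest ratio at 1.22, with a normalized count of 380 in 5546-s8 and a ratio of 0.32 without that CTC, and the matriptase gene ST14 was found in 1 CTC. GRHL2, GRHL3, OVOL1, OVOL2 and RAB25 were not analysed here.

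Of the repressors of epithelial genes, 6 of 7 were in the table and 0 met the rule, with a median log2 ratio of -0.67 (edgeR -0.41). ZEB1 was detected in 33 CTCs at 32.4 ± 15.6 (SD, n = 5 mice) beside 174 in culture, with mouse means from 18.1 to 57.1 that all lay below culture, as 60.3% of all genes did. SNAI2 was detected in 17 CTCs at 20.2 ± 24.996 beside 52.5, or at 11.6 ± 7.77 without CTC 5545-4, and TCF4 and TWIST1 in 3 and 1 CTCs. SNAI2 lay below culture in 4 of 5 mice, and ZEB2, the other member of the ZEB pair, in 3 of 5.

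The splicing list holds factors that act on exons regulated by ESRP1 and ESRP2, and genes with such exons, 10 in all and all in the table. Its median log2 ratio was -1.20 (edgeR 0.17), and 0 genes met the rule. CD44, a surface receptor with variable exons, was detected in 37 CTCs at 397 ± 254 (SD, n = 5 mice) beside 535 in culture, and HNRNPM, known to oppose ESRP1 on CD44, in 36 at 188 ± 164 beside 508. MBNL1 was detected in 35 CTCs at 67.9 ± 43.5 beside 58.6, and FGFR2, whose epithelial exon depends on ESRP1, was found in 2 CTCs. RBFOX2, QKI, MBNL1, HNRNPM and PTBP1 were each detected in at least 31 CTCs, whereas ESRP1 was found in 2 and ESRP2 in 0.

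**Figure D5:**
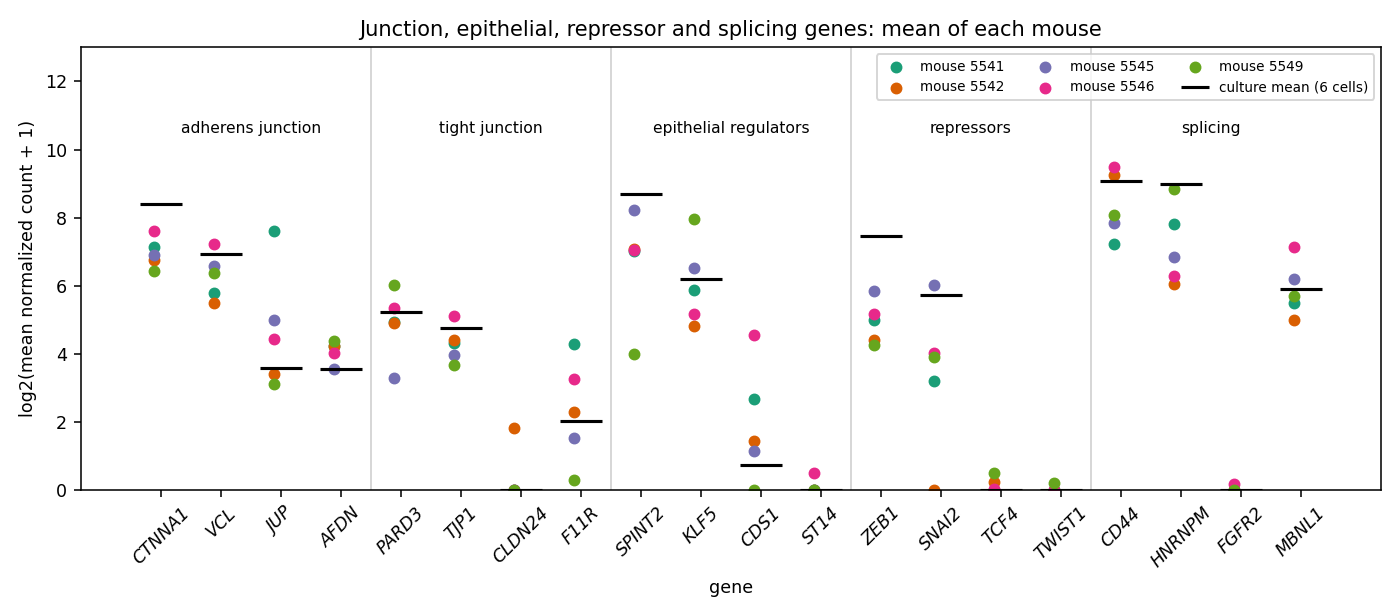
Mean level of 20 related genes, as log2 of the mean normalized count plus 1, in the CTCs of each mouse (colored points) and in the 6 cultured LM2 cells (black lines). CTNNA1, SPINT2, ZEB1 and HNRNPM lie below the culture mean in all 5 mice, as 60.3% of all genes with a mean of at least 8 do, and JUP lies above it in 3.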

How the data were processed

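Single-cell RNA-seq of 37 CTCs and 6 cultured LM2 cells was used, with CTC libraries of 469614 to 2041333 reads on genes. The deposited values are a signal per gene, which the authors made by counting uniquely mapped reads without strand and dividing by a size factor of the cell. STAR 2.7.10a and DESeq2 1.42.1 are named in the submitters' processing notes, and the paper names GRCh38 with GENCODE release 38. The authors left 4 CTC libraries out of the table. All 43 value columns were mapped to a sample by library name, and 0 were not. Reads were recovered by division by the smallest nonzero value of each cell, which gave whole numbers for 100% of values (tolerance 0.001), and the count test on them called 0 genes.

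The members of the marker set, the related gene lists and the rules were chosen with earlier results of these data known. Named genes are the 9 markers, up to 4 of each related list (the highest mean over mice and the largest ratio to culture) and, for a marker in at least 10 CTCs, the 3 genes with the highest Spearman correlation. CTC 5545-1, the cadherin set and the detection patterns of EPCAM, CLDN7 and ESRP2 were chosen after their values were seen. The rule of size used means by mouse, a pseudocount of 1, a 4-fold difference and a minimum mean of 8. Reads summed per mouse and over the culture were tested in edgeR 4.0.16 (TMM, filterByExpr, quasi-likelihood, Benjamini-Hochberg over all genes tested) under R 4.3.3. Coordinates and exonic lengths came from GENCODE release 44 on GRCh38 and promoter windows from RefSeq. Alternatives were other detection minimums, thinning, pseudocounts of 0.1 and 8, no minimum mean, medians over cells, scaling by total reads, DESeq2 1.42.0, no filter, no division by length, and leaving out each mouse, each cultured cell or the s libraries. Leaving out CTC 5545-1, leaving out the s libraries in edgeR, and leaving out the highest CTC of each related gene were added after the data were seen. The scripts were tested on simulated data. Python 3.11.15 with pandas 2.3.3, numpy 2.4.6 and scipy 1.17.1 was used. Promoter windows of 4 of the genes and protein sequences were not used here.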

Additional observations from a re-analysis of the deposited data

Results flagged for a closer look

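Markers were examined in 25 groups of 4 to 10 cells, and in 12 of these groups a single cell stood far from the rest. The number of such groups expected by chance was not estimated, since many cells held no read of the marker examined. In 7 of the 12 the gene was detected in 1 cell of the group, which sets that cell apart by construction. Mouse 5546, with 17 CTCs, was too large for this check, and mouse 5541 too small.

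CTC 5545-1 was apart from the other CTCs of mouse 5545 in EPCAM (72.1, next 8.95), in CLDN4 (119, all others at 0) and in CD24 (436, next 119). CTC 5545-3 was apart in CLDN7 (153, next 46.7) and in ESRP1 (1.10, from 1 read), and CTC 5545-12 in CDH1 (4.62). In mouse 5549, EPCAM in 5549-5 (0.464) and CLDN4 in 5549-3 (0.561) were each the only detection of that gene.

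Among cultured cells, LM-3 was apart in EPCAM (139, next 35.8). LM-P4 was apart in CLDN4 (9.68, next 3.56), in CLDN1 (1.61) and in CLDN3 (1.61), and it was the cultured cell with the most markers, 7 of 9. All values are normalized counts.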

How the results depend on the processing

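Requiring a normalized count of at least 8 lowered the share of gene and CTC pairs with detection from 18.0% to 11.4%, the markers per CTC from 1.62 to 1.03, and the share of CTCs with 2 or more of them from 45.9% to 21.6%, since a higher minimum can only remove detections. Thinning and a minimum of 2 reads gave 37.8% and 32.4% for the last. Leaving out 1 mouse, CTC 5545-1 or the s libraries gave 16.98 to 20.3% for detection, 1.53 to 1.83 markers per CTC and 42.4 to 55.2% of CTCs with 2 or more. The number of markers past the rule of size was 0 to 1 when 1 mouse or cultured cell was left out. The 1 was EPCAM without mouse 5542, a setting in which 626 genes were lower. Without division by length, 2 of the genes, EPCAM and CLDN4, changed place in CTCs.

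Genes lower in CTCs by the rule numbered 487, but 144 with a pseudocount of 8, 137 with scaling by total reads, 1357 with medians over cells and 757 without mouse 5545. The 6 higher genes became 17 and 3 with pseudocounts of 0.1 and 8, 12 with scaling by total reads, 2 with medians over cells, 7 to 13 when a mouse was left out and 5 to 9 when a cultured cell was. None of these settings except the loss of mouse 5542 added a marker. The count of genes called by edgeR was 0, 27 without a filter, 15 with DESeq2 and 1 without mouse 5545, with 0 of the 9 markers in each. Not every marker could be called in each fit, since some were not tested or had no adjusted p. The cause of these shifts was not tested.

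No paired analysis was possible because the numbers in the library names only name single cells, which do not match between mice or with the culture. Depth and the number of cells limit the rarest genes. A gene at 0 in 37 CTCs may still be detectable in up to 8.11% of such libraries by the limit of 3 counts, which says nothing of cells whose transcripts were not captured, and the 6 cultured cells are 1 culture.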
